A study of Mus musculus with 6 samples.

Results

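Lymphatic endothelial cells (LECs) line the vessels that return fluid, antigen-presenting cells and lymphocytes from the lung to its draining lymph nodes. Their identity rests on the transcription factor Prox1, and they sense the growth factor VEGF-C through the receptor VEGFR3, which Flt4 encodes. Blind-ended capillaries with loosely joined, LYVE1-bearing cells take up fluid and leukocytes, drawn in by the chemokine CCL21, and valved collecting vessels carry the lymph onward.

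Here LECs were barcodes of a droplet single-cell RNA sequencing experiment on CD45- mouse lung cells, chosen by their measured counts of a few genes. A barcode had to hold at least 1 UMI (1 counted RNA molecule) of at least 2 of Prox1, Mmrn1 (multimerin 1) and Reln (reelin), at least 1 UMI of Pecam1, Cdh5 or Egfl7, which endothelial cells share, and 0 UMIs of Ptprc, Lamp3, Col1a2 and Foxj1, which mark leukocytes, type 2 alveolar epithelial cells (AEC2s), fibroblasts and ciliated cells. Of 44096 kept barcodes, 616 met the rule. They held 2909927 UMIs, or 0.495% of the UMIs of all kept barcodes.

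The 6 libraries were 4 from control mice and 2 from Zip8 knockout mice, all C57BL/6 by the labels, from lines backcrossed to C57BL/6J, and 10 to 12 weeks old. In the knockout, called Zip8AEC2 in the study, SFTPC-CreER deletes a floxed Slc39a8, the gene of the zinc importer ZIP8, in AEC2s, the cells in which the SFTPC promoter is active, once tamoxifen is given. The mice also carry a Rosa-Tomato reporter. The controls were littermates, and lungs of both groups were taken 2 weeks after tamoxifen, given in 4 doses. For organoids the study's methods compare the knockout with SFTPC-CreER+ Rosa-Tomato fl/fl mice. The sources used here do not say whether the controls of these libraries had the same alleles, or how many mice stand behind each library. CD45- cells were enriched with magnetic beads, so LECs were not sorted for and leukocytes were depleted.

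The controls 1 to 4 gave 97, 154, 91 and 114 LECs and the Zip8 knockout libraries 1 and 2 gave 108 and 52. LECs were shallower than the average barcode. Their median depth per library ranged from 2850.5 to 4267.5 UMIs, against 6107 to 12463 UMIs over all kept barcodes. The summed LEC counts of a library ranged from 298611 to 805580 UMIs. Levels below (CPM) are UMIs of a gene divided by the summed UMIs of the cells named in a library, times 1000000. They are tags of transcript 3′ ends that were not divided by length, so levels are compared between cells and not between genes.

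Of the kept barcodes, 21091 had a cell barcode that another library also held, and so did 33 of the 616 LECs. In 8 of those 33 the other library held more UMIs. Control 1 also differed from the other controls in its LECs through a single barcode of 43469 UMIs that held 24144 of that library's 28814 UMIs of the club cell gene Scgb1a1 in LECs. Without that barcode the Scgb1a1 level in LECs of control 1 was 12432 CPM in place of 68748 CPM. In control 4, 3786 of 7348 Scgb1a1 UMIs lay in 1 LEC.

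An abundant lymphatic transcript also shows where the counting can go wrong. Ccl21a, the serine form of the CCL21 chemokine that guides CCR7-bearing dendritic cells and T cells, lies on the minus strand at chr4:42772860-42773993 (GRCm38). The reference holds near-identical copies of it, among them Gm21541 on the plus strand at chr4:41903610-41904743. Their annotated transcripts, 870 bases each, differ at 6 bases (99.31% identity). Counted from base 1 of the Ccl21a transcript with the Ccl21a base named before the position, the differences are G24A, C640T, T812C and G856A in the UTRs and T159A and C269T in the coding part. The stretch from base 149 to base 279, in exons 2 and 3, holds both coding differences. It is shown for each gene, read 5′ to 3′ from the annotated GRCm38 transcripts, with the differing bases in capitals.
Ccl21a, chr4:42773533-42773757, minus strand: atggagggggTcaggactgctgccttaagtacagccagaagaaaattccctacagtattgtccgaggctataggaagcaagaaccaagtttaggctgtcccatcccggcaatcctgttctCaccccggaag
Gm21541, chr4:41903846-41904070, plus strand: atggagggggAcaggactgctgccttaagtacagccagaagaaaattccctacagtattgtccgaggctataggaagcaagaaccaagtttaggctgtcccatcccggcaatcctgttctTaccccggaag
In LECs, 75752 UMIs were assigned to Ccl21a and 932 to Gm21541, and reads of the shared sequence could have been split between them or dropped. The levels of both genes, and of the other copies, are therefore uncertain.

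Ccl21a and Flt4 set these cells apart from other endothelium, and Mmrn1 is a gene of the rule that chose them. The 250 bases before the start in RefSeq's table are shown for Ccl21a, Flt4 and Mmrn1 (RefSeq, GRCm38.p6, each 5′ to 3′ on the strand of its gene). They were searched on both strands for the SOX core AACAAT, the GATA core AGATAA and the forkhead core GTAAACA, letters that do not contain one another, and matches are in capitals. For Flt4 and Mmrn1 the RefSeq start, and with it the window, lies inside the longer gene span of the annotation from which the gene coordinates printed here were taken, chr11:49609263-49652739 for Flt4 and chr6:60924976-60989378 for Mmrn1.
Ccl21a, chr4:42773992-42774241, minus strand: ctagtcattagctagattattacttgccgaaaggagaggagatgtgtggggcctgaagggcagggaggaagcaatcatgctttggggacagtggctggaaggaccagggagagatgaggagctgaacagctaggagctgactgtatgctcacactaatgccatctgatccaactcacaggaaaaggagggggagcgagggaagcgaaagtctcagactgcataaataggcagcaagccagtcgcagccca
Flt4, chr11:49609429-49609678, plus strand: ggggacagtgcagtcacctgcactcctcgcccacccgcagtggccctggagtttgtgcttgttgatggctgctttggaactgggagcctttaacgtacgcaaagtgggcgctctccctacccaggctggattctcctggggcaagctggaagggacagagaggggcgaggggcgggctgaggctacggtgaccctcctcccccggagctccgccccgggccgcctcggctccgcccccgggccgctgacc
Mmrn1, chr6:60944067-60944316, plus strand: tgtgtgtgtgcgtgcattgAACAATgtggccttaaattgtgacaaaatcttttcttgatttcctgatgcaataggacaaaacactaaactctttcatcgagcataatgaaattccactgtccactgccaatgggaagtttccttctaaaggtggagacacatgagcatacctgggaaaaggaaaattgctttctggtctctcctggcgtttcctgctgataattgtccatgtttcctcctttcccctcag
Of the 3 windows, Mmrn1 alone held a match, 1 SOX core. Among 32851 windows of the same length, 9.42% held the SOX core, 9.99% the GATA core and 3.17% the forkhead core. Of the 10 genes named below with the largest excess in LECs over blood endothelial cells, 8 had a window, and 0 of the 8 held any of these letters.

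The genes of the rule are given as a description, since they chose the cells. Prox1, at chr1:190118035-190170714 on the minus strand, had a level of 656, 574, 749 and 510 CPM in controls 1 to 4 and 844 and 620 CPM in Zip8 knockout 1 and 2. Mmrn1, a secreted glycoprotein of lymphatic vessels and platelets, was at 3920, 4157, 3787 and 3954 CPM in controls against 3535 and 3161 CPM in the knockout libraries. Reln, a large secreted glycoprotein, was at 1188, 1149, 1092 and 1085 CPM against 759 and 784 CPM. All 3 genes were detected in 449 LECs (72.9%), Mmrn1 with Reln in 116 (18.8%), Prox1 with Mmrn1 in 50 (8.12%) and Prox1 with Reln in 1. Without the 4 genes that had to be at 0, 899 barcodes would have met the rule. Lamp3 was detected in 143 of these, Col1a2 in 158, Foxj1 in 44 and Ptprc in 2.

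Cells on either side of the cut on marker number differed in genes the rule did not use. Ccl21a stood at 25954 CPM in LECs with all 3 markers and at 26398 CPM in those with 2, and was detected in 97.6% and 93.4% of these cells. In the 78 otherwise eligible barcodes with 1 marker, which the rule left out, it stood at 5251 CPM and was detected in 55.1%. In the 2056 with 0 markers it stood at 16.1 CPM and was detected in 6.86%. Median depth was 4259, 2368, 2320.5 and 3173 UMIs for 3, 2, 1 and 0 markers, so the group with 0 markers was not the shallowest. Vwf (von Willebrand factor, of blood vessel endothelium) ran the other way, at 6.25, 13.7, 2044 and 3216 CPM. The pooled levels of barcodes with 1 marker thus lay between those of LECs and of barcodes with 0 markers in both genes. Vwf was detected in 43.6% of the barcodes with 1 marker. Pooled levels do not show whether single cells were intermediate or the group was a mixture. The club cell gene Scgb1a1 stood at 13176, 60335, 190692 and 176881 CPM for 3, 2, 1 and 0 markers. The pooled barcodes below the cut thus also held more airway RNA. They needed only 1 endothelial gene, so they are not the blood endothelial cells defined below, which needed 2. In those cells all airway markers summed to 13754 to 71353 CPM. The pooled Scgb1a1 levels can also rest on few barcodes, such as the LEC of control 1 with 24144 UMIs.

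These 616 cells held a large part of the UMIs of a few genes. LECs held 61.8% of the Ccl21a UMIs of all kept barcodes, 54.5% of Flt4, 45% of Ptx3 (pentraxin 3, a soluble pattern recognition molecule) and 43.6% of Nts (neurotensin). Other genes used as lymphatic markers were spread more widely. LECs held 15.6% of Lyve1, 10.3% of Maf and 4.19% of Pdpn (podoplanin, also made by type 1 alveolar cells), and 1.48% of Lcn2 (lipocalin 2).

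LECs were set against blood endothelial cells (BECs) of the same libraries. BECs were 1761 kept barcodes with at least 2 of Pecam1, Cdh5 and Egfl7, 0 UMIs of Prox1, Mmrn1 and Reln, and the same 4 genes at 0. Of these, 759 counted as large-vessel cells (at least 2 Vwf UMIs, 0 of Gpihbp1 and Ednrb), 126 as general capillary cells and 77 as aerocytes, and the rest met none of these rules. Counts were summed per library and population and tested with edgeR's quasi-likelihood test with the library as a block, on all genes with enough counts, leaving out genes that the rules used. Of 8171 genes, 1441 (17.6%) were higher and 1598 (19.6%) lower in LECs at an adjusted p under 0.05, in all 37.2%. Scaled to total UMIs in place of TMM, the split was 1865 higher and 1324 lower, and the median of all genes moved from 0.001 to 0.10 on the log2 scale. Against large-vessel cells, 1157 of 6232 genes (18.6%) were higher and 1258 (20.2%) lower, in all 38.8%, and scaled to total UMIs 1514 were higher and 1040 lower. The 6 LEC libraries did not overlap with those of BECs in 23.1% of genes (12.8% with LECs higher, 10.3% lower), and with large-vessel cells in 24.4% (13.7% and 10.7%). The gene lists below are read against these shares.

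Of 12 lymphatic surface and scavenger receptor genes tested against BECs, 8 were higher in LECs, 3 lower and 1 not past the threshold, with a list median of 2.09 on the log2 scale. Pdpn stood at 410, 422, 396 and 442 CPM in the controls and 317 and 358 CPM in the knockout libraries, against 31.5, 1.81, 1.55, 5.44, 0 and 1.23 CPM in BECs. The log2 fold change was 5.94 ± 0.35 (SE; edgeR adjusted p = 7.6e-11). Mrc1, the mannose receptor CD206, ranged from 329 to 536 CPM in LECs with 2 UMIs over all BECs. Stab2, an endocytic receptor for hyaluronan, ranged from 69.5 to 237 CPM with 1 UMI over all BECs. Thy1, a surface protein that binds leukocyte integrins, ranged from 334 to 581 CPM against 0 to 1.81 CPM. LEC and BEC libraries were apart for each of these genes.

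Lyve1, the hyaluronan receptor by which lymphatic capillaries are usually told apart, did not separate the populations here. The gene lies at chr7:110850607-110863239 on the minus strand. Its level was 1603, 2044, 1991 and 2073 CPM in LECs of the controls and 648 and 1206 CPM in those of the knockout libraries. BECs of the same libraries held 1624, 2063, 2212, 1833, 1237 and 1620 CPM, so the ranges overlapped. The log2 fold change was -0.32 ± 0.12 (edgeR adjusted p = 0.043), and the call was lost without control 3 (0.0658), without Zip8 knockout 1 (0.173) or without Zip8 knockout 2 (0.148) and under 7 other alternatives. Against large-vessel cells it was -0.61 ± 0.13 (edgeR adjusted p = 0.00098). Cells chosen by Prox1, Mmrn1 and Reln were thus not set apart from blood endothelium by their Lyve1 level.

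**Figure D1:**
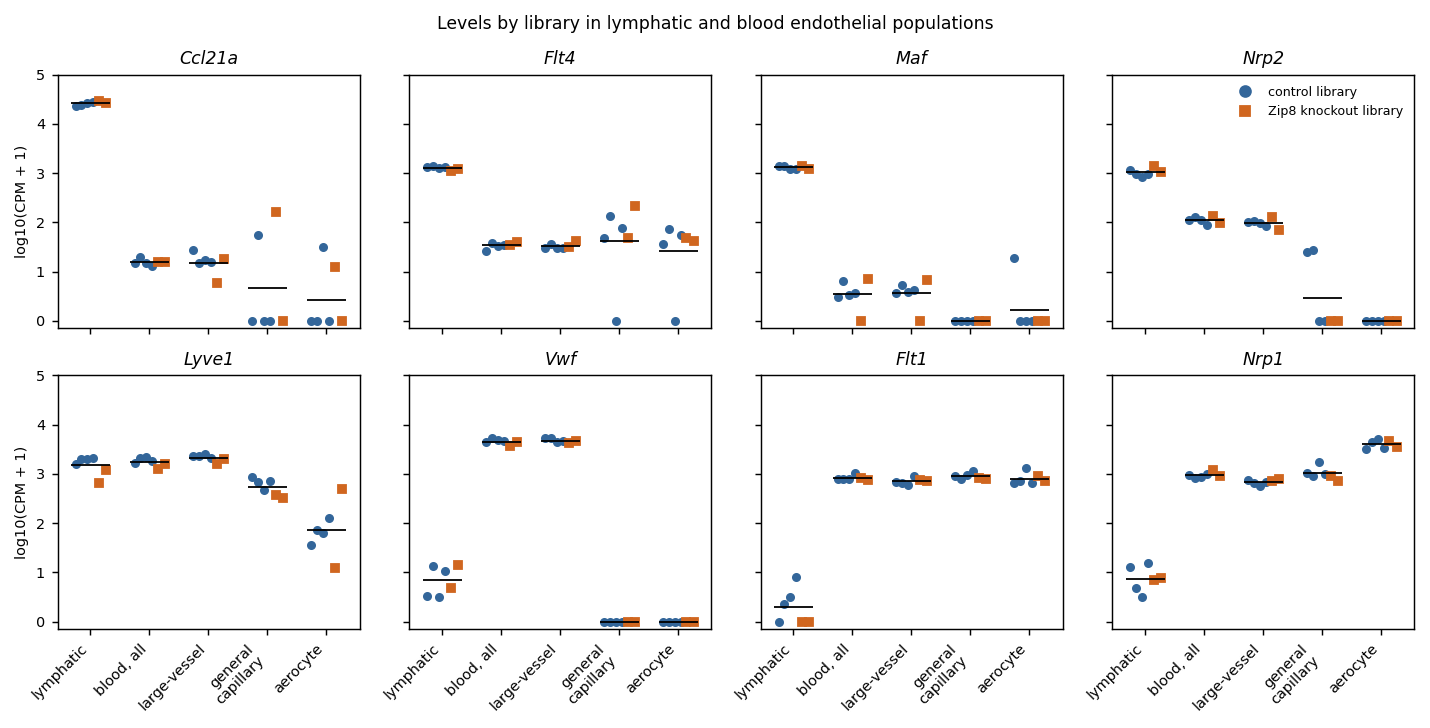
Levels of 8 genes in LECs, all BECs, large-vessel cells, general capillary cells and aerocytes, as log10(CPM + 1) on the vertical axis, with 1 point per library (circles control, squares Zip8 knockout) and a bar at the mean of the 6 points. Ccl21a, Flt4, Maf and Nrp2 lay higher in LECs than in every blood population, Lyve1 overlapped with BECs, and Vwf, Flt1 and Nrp1 lay near the floor in LECs; Vwf was part of the rule for the blood subsets.

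Receptors and ligands of the VEGF and angiopoietin systems went in opposite directions. Of 13 genes tested against BECs, 5 were higher in LECs and 7 lower, with a list median of -2.31 that is the same with Aplnr, at 0 in LECs, taken at its bound. Flt4 stood at 1298, 1363, 1246 and 1359 CPM in the controls and 1118 and 1189 CPM in the knockout libraries, against 25.4 to 39.5 CPM in BECs (log2 fold change 5.13 ± 0.13, edgeR adjusted p = 1.3e-15). Nrp2, the neuropilin that partners VEGFR3, ranged from 849 to 1390 CPM in LECs and from 87.0 to 134 CPM in BECs (3.14 ± 0.11, edgeR adjusted p = 6.1e-14). Kdr (VEGFR2) was higher too, at 954 to 1093 CPM against 291 to 626 CPM (1.17 ± 0.11, edgeR adjusted p = 4.8e-08). Flt1 and Nrp1, which bind VEGF-A in blood vessels, were near 0. Flt1 (VEGFR1) was at 0, 1.24, 2.21 and 7.09 CPM in the controls and 0 in both knockout libraries, against 757 to 1040 CPM in BECs (-8.88 ± 0.25, edgeR adjusted p = 4.4e-15). Nrp1 ranged from 2.21 to 14.2 CPM against 843 to 1206 CPM (-7.18 ± 0.20, edgeR adjusted p = 2.9e-15). Libraries of the populations were apart for all 5.

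Among the ligands, Pgf (placental growth factor, a ligand of VEGFR1) ranged from 196 to 312 CPM in LECs and from 0 to 1.23 CPM in BECs (log2 fold change 8.23 ± 0.24, edgeR adjusted p = 4.7e-15). Angpt2, an angiopoietin, was higher by 2.48 ± 0.18 and its receptor Tek lower, with a log2 fold change of -2.31 ± 0.13. Vegfc, the ligand of VEGFR3, had 2 UMIs in control 2 and 1 in Zip8 knockout 2 over all LECs, against 180 to 350 CPM in BECs. Vegfa stood at 13.7 to 57.3 CPM in LECs and 199 to 333 CPM in BECs (-3.10 ± 0.16). The receptor gene of VEGF-C was thus higher in LECs and the ligand gene higher in BECs of the same libraries.

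Of 16 lymphatic transcription factors tested, 8 were higher in LECs than in BECs and 7 lower, with a list median of 0.19. Maf, a bZIP factor, ranged from 1203 to 1409 CPM in LECs against 0 to 6.17 CPM in BECs (log2 fold change 8.45 ± 0.21, edgeR adjusted p = 1.3e-15). Tbx1, a T-box factor that lymphatic growth needs, ranged from 211 to 339 CPM against 1.55 to 5.08 CPM (6.09 ± 0.18). Nr2f2, the vein and lymphatic factor COUP-TFII that acts upstream of and with Prox1, ranged from 610 to 685 CPM against 148 to 228 CPM (1.7 ± 0.11). Meox1 (4.63 ± 0.24) and Nfatc1 (1.04 ± 0.12), a factor of valve formation, were higher as well. Sox17 (-3.34 ± 0.29), an arterial factor, and Gata2 (-2.88 ± 0.15) and Foxc1 (-1.32 ± 0.18), which serve lymphatic valves, were lower. Sox18, the factor that induces Prox1, stood at 314 to 568 CPM against 427 to 556 CPM (-0.30 ± 0.11, edgeR adjusted p = 0.030), with overlapping libraries. That call was lost under 9 of 18 alternatives, among them without control 1 (0.0597), control 2 (0.0543) or control 3 (0.155). Foxc2, the classical valve factor, ranged from 19.6 to 52.1 CPM in LECs and 10.9 to 35.5 CPM in BECs with overlapping libraries (0.63 ± 0.20, edgeR adjusted p = 0.017). That call was lost under 4 of 17 alternatives, among them without control 2 (0.0813) or control 4 (0.0676). Against large-vessel cells Foxc2 gave -0.15 ± 0.20 (edgeR adjusted p = 0.62).

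The leukocyte traffic list, of 18 tested genes, held 6 that were higher in LECs and 10 that were lower, with a list median of -1.26. Ccl21a stood at 23017, 24603, 25888 and 27686 CPM in the controls and 29467 and 26118 CPM in the knockout libraries, against 12.2 to 18.6 CPM in BECs (log2 fold change 10.65 ± 0.11, edgeR adjusted p = 2.7e-21). Il7, the survival cytokine of lymphocytes (5.70 ± 0.24), and Ackr2, the scavenger of inflammatory chemokines (2.50 ± 0.21), were higher, as were the guidance molecules Sema3a, at 97.9 to 175 CPM against 0 to 10.2 CPM, and Sema3d, at 328 to 432 CPM against 0 to 1.36 CPM. The adhesion molecules by which leukocytes leave blood went the other way. Vcam1 ranged from 1.96 to 16.7 CPM in LECs and from 823 to 1918 CPM in BECs (-7.54 ± 0.22, edgeR adjusted p = 5.7e-15). Selp (-6.51 ± 0.29) and Sele (-6.22 ± 0.38), the P- and E-selectins, and Icam1 (-3.0 ± 0.16) were lower too. Cxcl12 (-3.08 ± 0.19) and its scavenger receptor Ackr3 (-2.31 ± 0.22) were lower.

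Among valve and collecting vessel genes, 8 of 17 tested were higher than in BECs and 7 lower, with a list median of 0.12. Gja1 (connexin 43) ranged from 382 to 740 CPM against 1.55 to 6.80 CPM (log2 fold change 6.78 ± 0.18, edgeR adjusted p = 2.0e-15). The arterial connexin Gja4 was lower (-2.25 ± 0.26). Itga9, the integrin that valve leaflets need, was higher (1.47 ± 0.14). Connexin 43 RNA was thus higher in LECs and that of the arterial connexin higher in BECs.

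Of 13 endothelial junction genes, 3 were higher, 7 lower and 3 not past the threshold, with a list median of -0.71. Jam2 had 1 UMI over all LECs against 238 to 316 CPM in BECs. Esam, an adhesion molecule of blood endothelial tight junctions, ranged from 5.87 to 36.0 CPM against 606 to 690 CPM (log2 fold change -4.96 ± 0.20, edgeR adjusted p = 3.4e-13). F11r (0.75 ± 0.10) and Jam3 (1.91 ± 0.27), which encode other junctional adhesion molecules, were higher. Cldn5, the main endothelial claudin, ranged from 2684 to 3120 CPM in LECs and 1684 to 3212 CPM in BECs, a log2 difference of 0.16 ± 0.10 (edgeR adjusted p = 0.23), and was higher than in large-vessel cells (0.34 ± 0.09, edgeR adjusted p = 0.0043).

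Secreted matrix proteins and their regulators were more often higher. Of 24 tested, 13 were higher than in BECs and 6 lower, with a list median of 0.30. Lama4, a laminin chain, ranged from 412 to 583 CPM against 39.6 to 64.7 CPM (log2 fold change 3.26 ± 0.12, edgeR adjusted p = 1.3e-13). Nid2 (nidogen 2, 5.59 ± 0.30), Igfbp3 (4.89 ± 0.30) and Timp3 (1.47 ± 0.08) were higher. Igfbp5 varied widely among LEC libraries, at 2500, 4901, 3975 and 1876 CPM in the controls and 368 and 3228 CPM in the knockout libraries, against 69.2 to 486 CPM in BECs. Mgp (matrix Gla protein, -3.89 ± 0.17) and Pltp (-6.35 ± 0.18) were lower.

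In the Notch, BMP and TGF-beta list, 14 of 19 tested genes were lower in LECs and 3 higher, with a list median of -2.74. Smad6 had 3 UMIs over all LECs against 238 to 349 CPM in BECs. The BMP target Id1 ranged from 28.6 to 111 CPM against 757 to 1360 CPM (log2 fold change -3.87 ± 0.18, edgeR adjusted p = 2.2e-12). Id3 (-2.74 ± 0.14), Smad7 (-6.34 ± 0.24), the BMP9 receptor Acvrl1 (-3.05 ± 0.15), its partner Bmpr2 (-2.28 ± 0.12), Eng (-1.80 ± 0.11) and Notch4 (-4.93 ± 0.30) were lower. Tgfbr2, the TGF-beta receptor, was an exception, at 768 to 973 CPM against 110 to 159 CPM (2.66 ± 0.10, edgeR adjusted p = 2.2e-13). Notch1 stood at 284 to 351 CPM against 227 to 325 CPM (0.06 ± 0.09, edgeR adjusted p = 0.65).

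Of 16 genes of lipid uptake and oxidation, 2 were higher and 8 lower, with a list median of -0.77. Abca1, the cholesterol exporter, ranged from 343 to 449 CPM against 34.7 to 67.4 CPM (log2 fold change 2.78 ± 0.13, edgeR adjusted p = 2.3e-12). The fatty acid receptor Cd36 ranged from 39.8 to 131 CPM against 916 to 1547 CPM (-4.01 ± 0.19, edgeR adjusted p = 4.4e-12). Apoe (-2.38 ± 0.18) and the fatty acid binding protein Fabp4 (-2.65 ± 0.16) were lower. LECs thus carried more RNA of the cholesterol exporter and less of these fatty acid genes.

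Antigen presentation genes were lower throughout. Of 14 tested MHC class I and peptide loading genes, 14 were lower than in BECs, with a list median of -1.13, and 14 of 14 were lower than in large-vessel cells. H2-K1 stood at 752, 772, 1169 and 1075 CPM in LECs of the controls and 1474 and 1095 CPM in those of the knockout libraries, against 1656, 1363, 2148, 2347, 3782 and 2037 CPM in BECs. It was lower in LECs in 6 of 6 libraries, although the ranges overlapped across libraries (log2 fold change -1.14 ± 0.09, edgeR adjusted p = 3.3e-09). B2m, the light chain of class I, was lower by a like amount (-1.0 ± 0.08). Of 6 MHC class II genes, 6 were lower, with a median of -2.24. Cd74, the invariant chain, was at 33.5 to 94.5 CPM in LECs of the controls and at 303 and 36.8 CPM in those of the knockout libraries. Of 18 interferon response genes, 11 were lower and 0 higher at an edgeR adjusted p under 0.05, with a list median of -0.80.

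The zinc transport and storage list, which the knockout of this study makes of interest, hardly set LECs apart. Of 18 tested genes, 2 were higher than in BECs, 2 lower and 14 not past the threshold, with a median of -0.003. The plasma membrane importer Slc39a4 (2.65 ± 0.32 on the log2 scale) and the exporter Slc30a4 (1.57 ± 0.23) were higher. The zinc exporter Slc30a1 (-1.30 ± 0.18) and the importer Slc39a6 (-1.53 ± 0.28) were lower. Slc39a8 was too low to be tested in this comparison, at 7.83 to 26.2 CPM in LECs and 8.50 to 35.5 CPM in BECs.

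**Figure D2:**
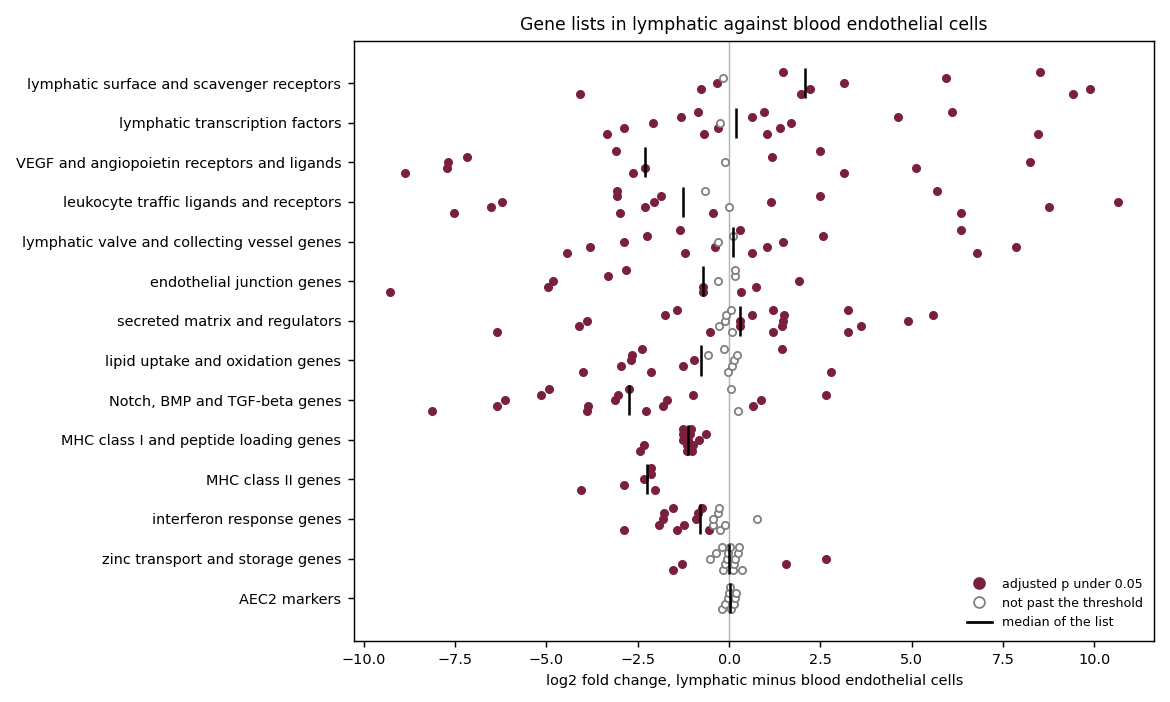
Log2 fold change of each tested gene of the main lists, LECs minus BECs (horizontal axis), with 1 point per gene, filled where the adjusted p was under 0.05, and a vertical bar at the list's median. Fitted values of genes at 0 in LECs depend on the prior count. The surface receptor list lay to the right (median 2.09), and the Notch, BMP and TGF-beta list (-2.74), the VEGF and angiopoietin list (-2.31) and MHC class II (-2.24) lay to the left.

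Genes were also named by size of fold over all genes tested, list members included. The 10 with the largest fitted excess over BECs were Ptx3, Ccl21a, Btnl9, Dtx1, Gm21541, Mrc1, Thy1, Duox2, Hoxd9 and Sema3d. Ptx3 stood at 460, 257, 294 and 345 CPM in the controls and 804 and 362 CPM in the knockout libraries and at 0 UMIs in every BEC library. Against the floor of 3 UMIs over all BECs it was at least 1041-fold higher. By the same floor the butyrophilin-like gene Btnl9 was at least 539-fold higher, the Notch regulator Dtx1 at least 438-fold, the NADPH oxidase Duox2 at least 248-fold and the homeobox gene Hoxd9 at least 240-fold. The 10 with the largest deficit were Pde3a, Slc6a2, Bst1, Fendrr, Sema3g, Tbx3, Vwf, Cytl1, Jam2 and Flt1. Pde3a, a phosphodiesterase, had 0 UMIs in LECs and stood at 297 to 359 CPM in BECs, at least 324-fold lower against the floor of 3 UMIs over all LECs. Slc6a2, the noradrenaline transporter of lung endothelium, was at least 326-fold lower, and Bst1 at least 186-fold.

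Most of these genes also led against the large-vessel cells. There the 10 largest excesses were Mrc1, Ccl21a, Ptx3, Slc45a3, Thy1, Btnl9, Dtx1, Sema3d, Sh3gl3 and Gm21541, and the 10 largest deficits were Pde3a, Cytl1, Sema3g, Bst1, Jam2, Dkk2, Plac8, Flt1, Gja5 and Fendrr. Fxyd6, a regulator of the sodium pump, ranged from 818 to 1298 CPM in LECs against 6.12 to 24.7 CPM in BECs (log2 fold change 5.84 ± 0.17) and 13.3 to 37.4 CPM in large-vessel cells (5.22 ± 0.16). Igfbp7 gave different directions, since it was lower than in BECs as a whole (-0.52 ± 0.17, edgeR adjusted p = 0.024, lost under 5 of 18 alternatives, among them without control 1 at 0.117 or Zip8 knockout 1 at 0.103) and higher than in large-vessel cells (2.47 ± 0.17, edgeR adjusted p = 1.2e-09). The BEC and large-vessel comparisons share their LEC libraries and part of the blood cells.

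Of 19 blood vessel markers tested, 16 were lower in LECs than in BECs. The whole list summed to 3212 to 3801 CPM in LECs and 13714 to 17664 CPM in BECs. Cd300lg, a sialomucin of capillaries, was the exception that was higher, at 97.8, 127, 90.6 and 87.4 CPM in the controls and 23.5 and 63.6 CPM in the knockout libraries, against 0.905 to 7.48 CPM in BECs (log2 fold change 4.66 ± 0.33, edgeR adjusted p = 9.2e-10). Of the 8 large-vessel markers, 8 were lower, and Bst1 and Slc6a2 were at 0 in every LEC library. Plvap, of fenestrated and venous endothelium, was lower by a smaller margin (-1.36 ± 0.14).

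Markers of other lung cells were found in both LECs and BECs. The 9 tested AEC2 markers gave 0 calls with edgeR against BECs and 0 at an unadjusted p under 0.05. Of 6 airway markers tested, 1 was higher in LECs and 0 lower. Of 7 fibroblast markers 1 was higher and 2 lower, and of 3 pericyte and smooth muscle markers 2 were higher and 1 lower. The summed level of the AEC2 markers in LECs was 5218, 1416, 2998 and 6594 CPM in the controls and 2907 and 2391 CPM in the knockout libraries. In BECs it was 4626, 1287, 2524, 5368, 2837 and 2775 CPM. Sftpc was the most abundant, and Lamp3 was at 0 by the rule. Airway markers summed to 71838, 9737, 18855 and 18311 CPM in LECs of the controls and 15096 and 12575 CPM in those of the knockout libraries, mainly Scgb1a1, with Foxj1 at 0 by the rule. In BECs they summed to 69955, 20918, 13810, 16222, 13754 and 71353 CPM, so Zip8 knockout 2 and control 2 held more in BECs than in LECs. Erythroid markers summed to 14745 CPM in control 4 and 747 CPM in control 2, with 17.6 to 35.8 CPM in the other 4 libraries. In control 2, 285 of 341 UMIs of the globin gene Hbb-bs lay in 1 LEC, without which its Hbb-bs level was 70.0 CPM in place of 423 CPM. Leukocyte markers summed to 27.3 to 77.3 CPM in LECs and 2.47 to 7.28 CPM in BECs, in LECs mostly Fcer1g, which was higher than in BECs (5.42 ± 0.37 on the log2 scale), while Ptprc was at 0 by the rule. Fibroblast markers summed to 115 to 376 CPM in LECs and 99.5 to 474 CPM in BECs. Control 4 held 53 LECs with a UMI of Hbb-bs, so there it was not confined to a few cells. The part of such RNA in the results was not tested.

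Cells in division were few. Cenpf, the most abundant of the proliferation genes in LECs, had 117 of its 118 UMIs in Zip8 knockout 2 and 63 of its 64 UMIs in control 2 in a single LEC each. The 50 Mki67 UMIs of Zip8 knockout 2 also lay in 1 cell.

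Once thinned to the same depth, about as many LECs held a UMI of Lyve1 as did not. To compare cells at equal depth, each was thinned to 1500 UMIs, which left out 43 shallower cells, 35 of the controls and 8 of the knockout. Of the 573 left, 285 held a Lyve1 UMI (49.7%) and 288 did not. The share was 44.4%, 57.1%, 55.2% and 59.8% in the controls and 34% and 40.8% in the knockout libraries. As background, 0.0934% to 2.57% of kept barcodes in each library with no UMI of an endothelial, lymphatic or leukocyte gene of the rule held a Lyve1 UMI at the same thinned depth, from a median depth before thinning of 7966 to 12625 UMIs against 3322 to 4520 UMIs in the LECs. In the 2056 barcodes with at least 1 endothelial gene and 0 lymphatic markers, unthinned, 72.8% held a Lyve1 UMI. That group also held much airway RNA. Of 1981 genes at 100 CPM or more on either side of the split, summed over libraries, 152 (7.67%) were higher with Lyve1 in all 6 libraries and 120 (6.06%) lower. Lyve1-detected cells were 230 of 421 in the controls and 55 of 152 in the knockout. So that the split does not weigh the genotypes unequally, the values that follow are means of the 6 libraries' levels, each library weighted equally. They were picked after they were seen and carry no test.

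Among the genes more abundant in the Lyve1-detected cells, Fgl2, a fibrinogen-like secreted protein, stood at 1862 CPM with a Lyve1 UMI and 502 CPM without. Igfbp5 stood at 3896 and 1130 CPM, the growth factor pleiotrophin (Ptn) at 418 and 42.5 CPM, complement C3 at 284 and 44.9 CPM and periostin (Postn) at 157 and 9.23 CPM. Lcn2 stood at 1234 and 582 CPM, Ackr3 at 212 and 47.2 CPM and Cd300lg at 145 and 24.9 CPM. All 8 were higher with Lyve1 in 6 of 6 libraries, as were the rule genes Mmrn1 (5096 and 3547 CPM) and Reln (1351 and 963 CPM) and Pdpn (516 and 337 CPM).

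Another group of genes was more abundant without Lyve1. Nephronectin (Npnt) stood at 44.4 CPM with a Lyve1 UMI and 359 CPM without, Stab2 at 74.7 and 206 CPM and Ptx3 at 222 and 701 CPM. Sparc stood at 404 and 1200 CPM, Plvap at 285 and 779 CPM, Mrc1 at 319 and 662 CPM, Thbs1 at 150 and 460 CPM and Gja1 at 468 and 802 CPM. These 8 were lower with Lyve1 in 6 of 6 libraries. Of the genes that mark LECs as a whole, Flt4 stood at 1479 and 1309 CPM (higher with Lyve1 in 3 of 6 libraries), Ccl21a at 30609 and 27381 CPM (5 of 6) and Nts at 419 and 436 CPM (4 of 6). Foxc2 was detected in 23 of the 573 thinned cells (4.01%).

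**Figure D3:**
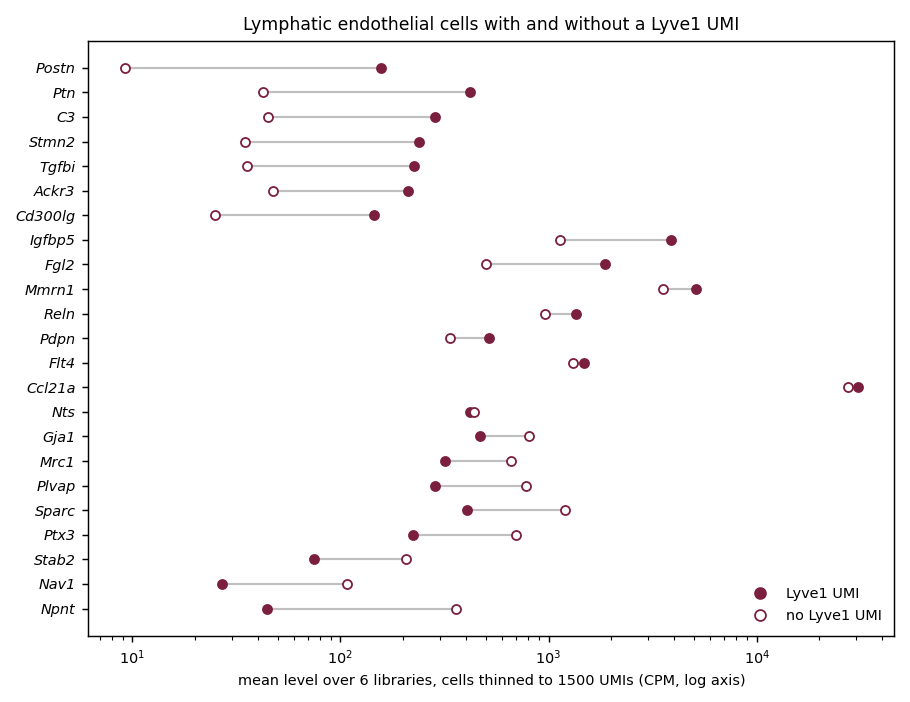
Levels of 23 genes in thinned LECs with a Lyve1 UMI (filled circles, 285 cells) and without (open circles, 288 cells), in CPM on a log axis, each the mean of the 6 libraries' levels. Postn and Ptn were higher with a Lyve1 UMI in 6 of 6 libraries and Npnt lower in 6 of 6, while the directions of Flt4, Ccl21a and Nts differed between libraries.

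The genotypes were then compared over the summed LECs of each library. The deletion is driven in AEC2s, so this asks what differed in LECs of lungs in which Slc39a8 was targeted in AEC2s. Slc39a8 itself stood at 26.2, 24.8, 11 and 9.45 CPM in LECs of the controls and 7.83 and 10.0 CPM in those of the knockout libraries, from 11, 20, 5 and 4 UMIs against 4 and 3. The groups overlapped (log2 fold change -1.13 ± 0.63, edgeR adjusted p = 0.62). In all other kept barcodes it stood at 111, 54.1, 77.7 and 125 CPM in the controls and 107 and 87.7 CPM in the knockout libraries. The position of the deleted part relative to the counted 3′ tags is not given in the sources used here, so these counts check no label.

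Of 6849 genes tested in LECs, 4 (0.0584%) passed an adjusted p of 0.05, 1 higher (0.0146%) and 3 lower (0.0438%) in the knockout, with 642 (9.37%) at an unadjusted p under 0.05. Groups did not overlap in 19.3% of genes, in 12.3% with the knockout higher and in 7.08% with it lower, which is the background for the library values below. With 2 knockout libraries, p-values rest on the spread between these few samples, which may be technical. The number of calls depended on the libraries, since it was 99 without Zip8 knockout 2 and 7 without Zip8 knockout 1.

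Nts, the gene of neurotensin, a peptide first known from gut and brain, was lower. It lies at chr10:102481756-102490486 on the minus strand and stood at 673, 734, 632 and 527 CPM in the controls and 80.2 and 157 CPM in the knockout libraries. All knockout values lay below all control values. The log2 fold change was -2.54 ± 0.26 (edgeR adjusted p = 0.0024), and it stayed past the threshold under 18 of 18 alternatives, with adjusted p up to 0.016. In the 2 alternatives that left out a knockout library, here and for the genes below, the remaining one was assumed to vary like the controls. Nts was detected in 19 of 97, 52 of 154, 19 of 91 and 22 of 114 LECs of the controls and in 7 of 108 and 10 of 52 of the knockout. A single cell held 13.5% to 43.9% of each library's Nts UMIs in LECs. Without that cell the levels were 472, 641, 417 and 433 CPM in the controls and 46.9 and 115 CPM in the knockout libraries. BECs held 0, 0, 0.776, 10.9, 0 and 0 CPM, and other kept barcodes 0.0717 to 11.6 CPM. Nts was thus both a LEC gene, higher than in BECs by 7.73 ± 0.38 on the log2 scale, and lower in LECs of the knockout.

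Apod, at chr16:31296192-31314808 on the minus strand, encodes the lipid carrier apolipoprotein D and stood at 246, 129, 141 and 82.7 CPM in the controls and 0 and 3.35 CPM in the knockout libraries (edgeR adjusted p = 0.014). The knockout value rests on 1 UMI, so no fold is given. It was detected in 9, 16, 6 and 7 LECs of the controls, and a single cell held 31.7% to 54.3% of each control's Apod UMIs in LECs. Other kept barcodes held 59.5, 44.4, 47.7 and 37.7 CPM in the controls and 8.73 and 29.3 CPM in the knockout libraries, also apart. Fibroblast markers moved with it, and summed in other kept barcodes to 9156, 13698, 7068 and 6784 CPM in the controls and 2491 and 5215 CPM in the knockout libraries, mostly Dcn. In LECs they summed to 267, 376, 259 and 324 CPM and to 115 and 268 CPM, with overlapping groups, Dcn the most abundant and Col1a2 at 0 by the rule. Of 5 fibroblast markers tested in LECs, 0 had a log2 difference above 0, with a median of -0.79, 0 passed with edgeR and 1, Dcn, with DESeq2. The part of fibroblast RNA in the Apod difference was not tested. The call was lost without Zip8 knockout 1 (edgeR adjusted p = 0.0951) and under 3 other alternatives, up to 0.124.

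Mtus1, a microtubule-associated tumour suppressor gene at chr8:40990914-41133726 on the minus strand, stood at 97.8, 128, 115 and 99.3 CPM in the controls and 37.2 and 36.8 CPM in the knockout libraries (log2 fold change -1.63 ± 0.23, edgeR adjusted p = 0.023). The groups were apart, while BECs held 90.4, 81.9, 107 and 101 CPM in the controls and 134 and 97.5 CPM in the knockout libraries. The call was lost without control 2 (0.0834), control 3 (0.0595) or Zip8 knockout 1 (0.110) and under 3 other alternatives, up to 0.395 in thinned cells.

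Sox4, a transcription factor of progenitor cells, was the gene that was higher. It lies at chr13:28948919-28953713 on the minus strand and stood at 110, 70.8, 70.7 and 68.5 CPM in the controls and 333 and 181 CPM in the knockout libraries (log2 fold change 1.67 ± 0.26, edgeR adjusted p = 0.041). It was detected in 28, 36, 18 and 16 LECs of the controls and in 61 of 108 and 24 of 52 of the knockout. The call was lost without control 2 (0.119), control 3 (0.176), control 4 (0.0682) or Zip8 knockout 1 (0.301) and where 2 endothelial genes were asked for (0.0620). The fold without Zip8 knockout 1 was 1.14 on the log2 scale.

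**Figure D4:**
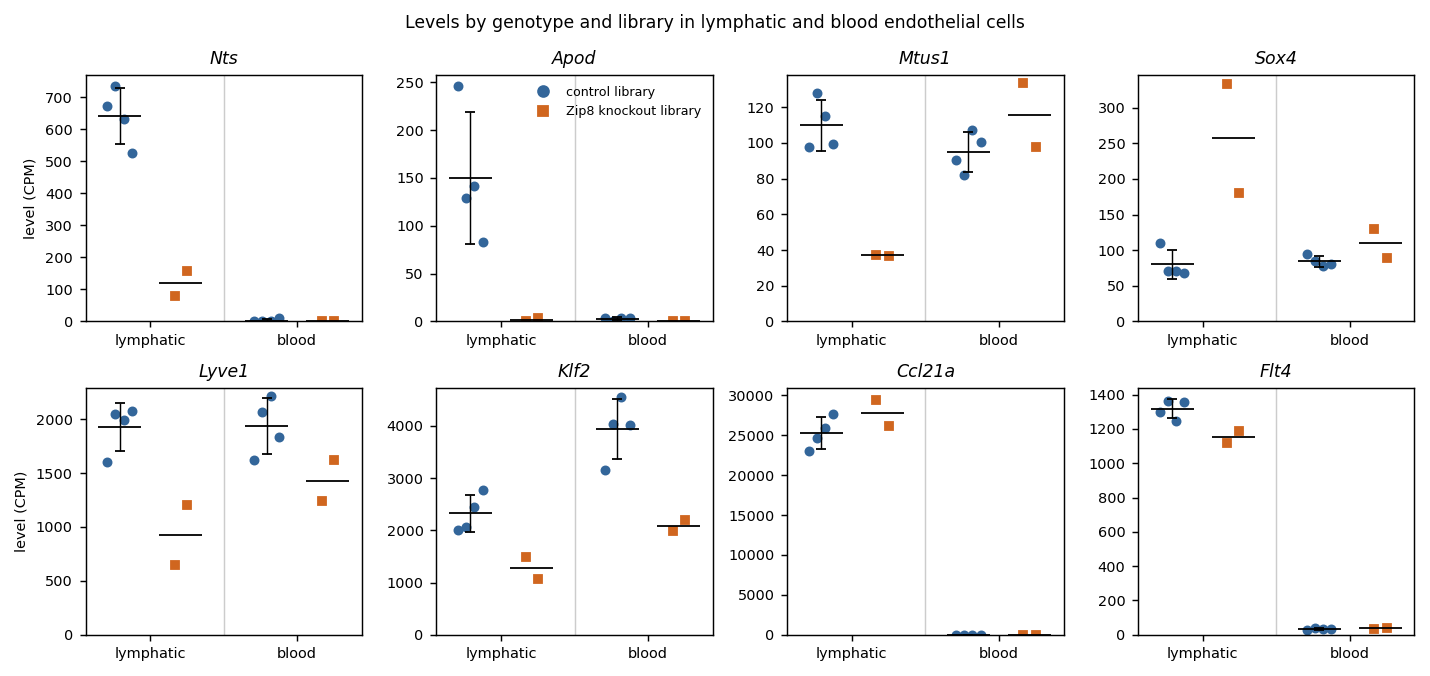
Levels in CPM of 8 genes by library in LECs and BECs, with circles for controls and squares for Zip8 knockout, bars at the group means and error bars of 1 SD for the controls. Nts, Apod and Mtus1 were lower and Sox4 higher in both knockout libraries in LECs; Lyve1 and Klf2 were lower without passing the threshold, and Ccl21a and Flt4 did not pass it either.

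With edgeR no other gene passed, while DESeq2 called 28 genes, 5 higher and 23 lower, the 4 above among them. The next 5 in each direction by unadjusted p were taken among genes with a mean of at least 50 CPM. All were at an edgeR adjusted p of 0.115 and so not past the threshold. They were Sparc, Nav1, Prkcdbp, Gja4 and H2-Q7 with higher values in the knockout and Cp, Ednrb, Klf2, Ackr3 and Lyve1 with lower ones. Sparc, a matricellular protein, stood at 554, 490, 599 and 787 CPM in the controls and 1317 and 1165 CPM in the knockout libraries (log2 difference 0.98 ± 0.18). Klf2, the flow-responsive factor, stood at 2014, 2061, 2437 and 2779 CPM and at 1486 and 1068 CPM (-0.92 ± 0.17), and in BECs at 3152, 4029, 4554 and 4015 CPM and 1983 and 2199 CPM. The arterial connexin Gja4 stood at 26.2, 58.3, 22.1 and 23.6 CPM and at 119 and 100.5 CPM (1.59 ± 0.32). The Lyve1 difference was -1.12 ± 0.21 from the levels given above, and that of Ackr3 -1.86 ± 0.35. In the Lyve1 split above, which carries no test, Sparc, Nav1, Prkcdbp and Ackr3 also had unlike levels with and without a Lyve1 UMI. These were picked after their values were seen, and the split is not described here for Gja4, H2-Q7, Cp, Ednrb and Klf2. For Nts, which was called between the genotypes, the direction in the split differed between libraries. Of all 1981 genes in that split, 7.67% were higher with Lyve1 in all 6 libraries and 6.06% lower. The share of Lyve1-detected cells was lower in both knockout libraries, as given above. The part of that share in these differences was not tested.

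Of the genes described above as high in LECs, Nts was called and the following 5 were not. Ccl21a gave a log2 difference of 0.08 ± 0.08 (edgeR adjusted p = 0.85), Flt4 -0.25 ± 0.12 (0.57), Pdpn -0.37 ± 0.15 (0.49), Ptx3 0.74 ± 0.29 (0.44) and Stab2 1.00 ± 0.27 (0.24). Over all lists, the genes of the rule left out, 238 genes were tested. Of these, 69 (29%, against 9.37% of all genes tested) had an unadjusted p under 0.05, and 0 passed with edgeR. DESeq2 called 9 of the 238, against 28 of all 6849 genes tested. The 9 were Ackr3, Dcn, Ednrb, Fgl2, Gja4, H2-Q7, Klf2, Lyve1 and Sparc. Many list genes were picked as lymphatic or endothelial genes, and some stand in more than 1 list. The lists were chosen with earlier results of these data known, so the 29% is no independent evidence. Of 17 zinc genes, 2 had an unadjusted p under 0.05 and 0 passed with edgeR or DESeq2, with a median of -0.03 against -0.004 for all genes. The 14 class I genes had a median of 0.39 and the 4 class II genes 1.51, of which 5 and 4 had an unadjusted p under 0.05. Class II summed to 117 to 210 CPM in the controls and to 720 and 121 CPM in the knockout libraries, so Zip8 knockout 1 alone lay above the controls, and 0 of the 4 genes had groups apart. In both lists 0 genes passed with edgeR, and DESeq2 called 1, H2-Q7, at 62.0, 54.6, 110 and 111 CPM in the controls and 276 and 167 CPM in the knockout libraries. Of its 50 UMIs in Zip8 knockout 2, 22 lay in 1 LEC, without which that library stood at 109 CPM, within the controls.

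Genes fixed because they differ in AEC2s or belong to the design gave no call in LECs. H2-K1 gave a log2 difference of 0.39 ± 0.19 (edgeR adjusted p = 0.56). Chil1, a chitinase-like gene of the epithelium, stood at 64.4, 6.21, 0 and 4.73 CPM in the controls and 58.7 and 13.4 CPM in the knockout libraries (1.17 ± 0.94, edgeR adjusted p = 0.77). In control 1, 16 of its 27 UMIs lay in the barcode of 43469 UMIs named above. The cell cycle inhibitor Cdkn1a (-0.12 ± 0.26) and the procollagen protease Bmp1 (0.13 ± 0.30) had an edgeR adjusted p of 0.96 each. Esr1, with 4, 7, 1 and 2 UMIs in the controls and 0 and 2 in the knockout libraries, and Gt(ROSA)26Sor, the locus of the reporter, with 2, 9, 7 and 6 and with 9 and 3 UMIs, were too low to be tested. Of the 8 listed genes that differed in AEC2s of these libraries, which is no independent list, 6 were tested in LECs and 0 passed with edgeR or DESeq2 or had an unadjusted p under 0.05, with a median of 0.08.

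Whether the genotype difference in LECs was another than in BECs was tested as an interaction. Of 9485 genes, 2 (0.0211%) passed, 1 in each direction (0.0105%), with 594 (6.26%) at an unadjusted p under 0.05, while DESeq2 called 0, with 123 at an unadjusted p under 0.05. Mtus1 differed by -2.02 ± 0.31 on the log2 scale (edgeR adjusted p = 0.015), and the call was lost without control 3 (0.0723) or Zip8 knockout 1 (0.346) and in thinned cells (0.160). Cxcl10, an interferon-induced chemokine, differed by 6.74 ± 1.01 (edgeR adjusted p = 0.015). Its level in LECs was 0, 1.24, 0 and 4.73 CPM in the controls and 159 and 3.35 CPM in the knockout libraries, and 80 of the 81 UMIs of Zip8 knockout 1 lay in 1 cell. Without that cell the library stood at 2.0 CPM, and without the library the adjusted p was 0.95. The call was also lost without control 3 (0.0972) or control 4 (0.123).

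The share of LECs was compared last. LECs made up 1.33% of kept barcodes in control 1 (95% Wilson interval 1.09 to 1.62), 1.62% in control 2 (1.38 to 1.89), 1.24% in control 3 (1.01 to 1.51) and 1.31% in control 4 (1.09 to 1.58). They made up 1.83% in Zip8 knockout 1 (1.52 to 2.20) and 0.974% in Zip8 knockout 2 (0.743 to 1.27), so the knockout libraries held the highest and the lowest share. The 4 genes that had to be at 0 took unequal parts of the libraries. Of 239 barcodes that met the rest of the rule in control 2, 154 stayed, and of 145 in Zip8 knockout 1, 108 stayed. The ranking thus holds only for the rule as used. The intervals cover counting error only. The mean was 1.37% ± 0.169 (SD, n = 4) in controls and 1.4% in the knockout (n = 2), a difference of 0.0273 percentage points (exact two-sided permutation p = 1). With 15 splits of 6 libraries the smallest p possible is 0.0667, so no difference could pass 0.05.

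As a share of endothelial cells, LECs plus BECs, the values were 29.0%, 28.4%, 26.3% and 18.8% in the controls and 34% and 22.7% in the knockout libraries. The means were 25.6% ± 4.70 (SD, n = 4) and 28.3% (n = 2), a difference of 2.72 percentage points (exact two-sided permutation p = 0.667). Both denominators come from enzymatic digestion and bead enrichment, which set how many of each cell type reach a library.

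**Figure D5:**
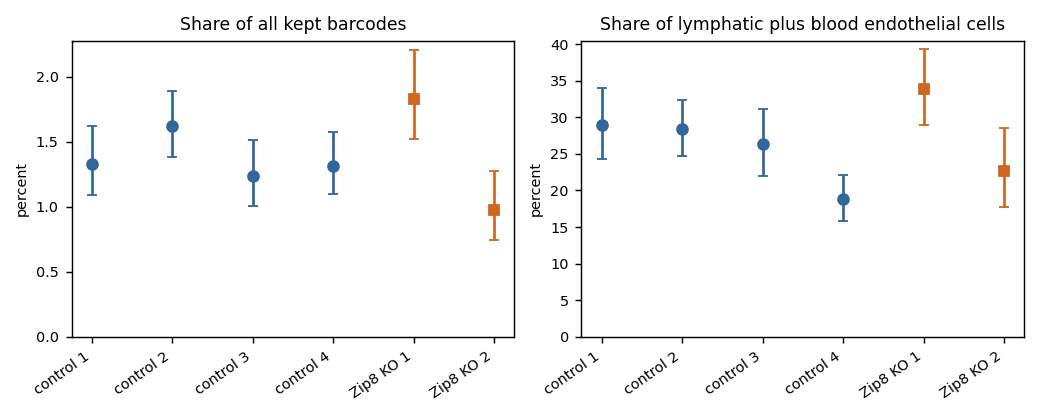
Share of LECs in percent by library, among all kept barcodes (left) and among LECs plus BECs (right), with 95% Wilson intervals (counting error only), circles for controls and squares for Zip8 knockout. By the rule as used, the knockout libraries stood at 1.83% and 0.974% of kept barcodes, above and below all controls.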

How the data were processed

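The authors aligned droplet 3′ libraries to mm10 and deposited matrices of UMI counts per gene and barcode (Cell Ranger 3.1.0 per the file headers; the labels also name Seurat). The deposited counts held 13990 to 19998 barcodes in 5 libraries and 7374 in Zip8 knockout 2, and 93852253 to 118771907 UMIs per library. Barcodes with at least 500 genes, at least 1000 UMIs and under 15% mitochondrial UMIs were kept. LECs, BECs and their subsets were taken by the gene rules given in the text, not by clustering. The members, the rules and the 32 gene lists (380 genes) were chosen with earlier results of these data known, and the AEC2 list was chosen on these samples, so it is no independent evidence.

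Counts were summed per library and population, because cells are not replicates, and tested with edgeR 4.0.16 (R 4.3.3): TMM, filterByExpr, quasi-likelihood F-test, Benjamini-Hochberg adjustment over all genes tested, threshold 0.05. The genotype fit used 4 control and 2 Zip8 knockout libraries, and comparisons of populations used 12 sums with the library as a block. Gene names were matched to GENCODE for 27645 of 27998 features. DESeq2 1.42.0, other scalings, filters, member rules, thinning and libraries left out were alternatives. Scaling to total UMIs and leaving out the tenth of cells with most UMIs were chosen after seeing the data. Scrublet (Scanpy 1.11.5) called 0.110% and 0.0736% of kept barcodes in controls 1 and 2, too few to have worked, and 0.842% to 2.17% elsewhere, 4 LECs in all; doublets were otherwise met only by the 4 genes at 0. The scripts were tested on simulated data.

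Named genes were list members with the highest level or smallest adjusted p, and the 10 largest folds per direction against BECs and large-vessel cells (at least 50 CPM, libraries apart). For genotype they were the called genes and, not past the threshold, the 5 smallest p per direction among genes with a mean of at least 50 CPM. H2-K1, Chil1, Slc39a8, Esr1, Cdkn1a, Bmp1 and Gt(ROSA)26Sor were always named. Other genes, and all in the Lyve1 split, were named after their values were seen. Where a population held 0 to 3 UMIs, UMIs or a bound against 3 UMIs are given. No batch is named in the labels.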

Additional observations from a re-analysis of the deposited data

Results flagged for a closer look

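In the control LECs 1 library stood far from the other 3 in 3 of 32 groups looked at, and chance alone does so in about 1 of 20 groups. Chil1 was at 64.42 CPM in control 1 against 0 to 6.21 CPM, and 16 of its 27 UMIs there lay in 1 barcode of 43469 UMIs. Gja4 was at 58.34 CPM in control 2 against 22.1 to 26.2 CPM. Sox4 was at 109.8 CPM in control 1 against 68.5 to 70.8 CPM, which is still below both knockout libraries.

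The genotype difference in LECs was another than in BECs for 2 genes by the interaction test of edgeR. Cxcl10 gave a difference of 6.742 on the log2 scale, with 80 of 81 UMIs of Zip8 knockout 1 in 1 cell. Mtus1 gave -2.023, with the LECs of both knockout libraries below all controls and the BECs of Zip8 knockout 1 above all controls.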

How the results depend on the processing

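The counts against BECs (3039) and large-vessel cells (2415) stayed within 1.5 times under every alternative run but thinning to 1500 UMIs, which tested fewer genes and gave 1532 and 1073. For the genes repeated against BECs, 1836 repeats kept their side of the threshold, 33 lost it (Lyve1, Sox18, Emcn, Foxc2 and Igfbp7) and 1 gained it (Cldn5). Against large-vessel cells 1 repeat, of Lyve1, lost it, and Foxc2, not called, changed sign, to 0.0835 without the tenth of cells with most UMIs. The 4 genotype calls became 28 with DESeq2, 236 without a filter, 14 with all 3 markers, 1 with at least 2 of Pecam1, Cdh5 and Egfl7, 18 after thinning, 47 without the tenth of cells with most UMIs and 3 to 99 when a library was left out. All 4 were among the 28, the 236, the 47 and the 99. The 2 interaction calls became 0 with DESeq2, 68 without a filter, 8 with all 3 markers, 4 with the stricter cell filter, 4 without Scrublet calls, 11 after thinning, 8 without the tenth of cells with most UMIs and 0 to 28 when a library was left out. With the replicate number as a block the genotype fit gave 16 calls, 3 of them shared; same-numbered libraries deviated together with correlations of 0.115 and 0.205 over 6849 genes, but there are only 2 pairs and the labels name no shared source. The interaction has the library as a block already. The difference in the share of kept barcodes reversed with the stricter cell filter (-0.0429), without barcodes held with more UMIs elsewhere (-0.1987) and after thinning (-0.0294), and ranged from -0.4006 to 0.4552 when a library was left out, negative without control 3 (-0.019) or Zip8 knockout 1 (-0.4006). That of endothelial cells ranged from -2.9051 to 8.3498, negative without Zip8 knockout 1. Single genes far from the threshold changed sign. With a library left out, Bmp1 ranged from -0.0208 (without control 2) to 0.2797, Ccl21a from -0.0091 (without Zip8 knockout 1) to 0.1698, Cdkn1a from -0.2497 to 0.0831 (without control 3; 0.0462 without Zip8 knockout 1) and Chil1 from -0.4206 (without Zip8 knockout 1) to 1.736. Bmp1 gave -0.064 with the stricter filter, and with the replicate block Cdkn1a gave 0.0885 and Chil1 -0.019. The cause of these changes was not tested. A library holds 52 to 154 LECs, so a gene near 10 CPM rests on a few UMIs.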
